A study of Arabidopsis thaliana with 6 samples.

Results

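The miRNAs described here are miR773a, miR843, miR5637 and miR5028, which make up 4 of the 197 miRNA entries quantified in Arabidopsis thaliana seedlings. They were taken from the tables by miR number (miR773, miR843, miR5637 and miR5028), and each number gave 1 entry with a single name. The 4 were chosen by their measured abundance (RPM) in these same libraries, which was higher in the mutant aar2-1 than in wild type (WT). Their difference between genotypes is therefore given below as a description. A fit across all entries includes them but is not used as a test of them. Intervals on their summed reads describe counting error and are not used as tests. Small RNA came from whole seedlings, 14 days old, kept in long days (16 h light, 8 h dark), in 2 groups of 3 libraries: WT, whose accession the labels do not name, and plants of the genotype aar2-1. The labels state no treatment, no transgene, and neither the nature of the aar2-1 lesion nor how many plants were pooled for a library. They call the libraries of a genotype biological replicates. The tables hold miRNAs alone, so the seedling tissue could not be checked against marker transcripts.

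Plant miRNAs are cut by DCL1 from the hairpins of primary transcripts and loaded into ARGONAUTE proteins, where they pair over nearly their whole length with target transcripts and direct their cleavage or translational repression. In Arabidopsis AGO1 favours small RNAs that begin with U, and AGO2 those that begin with A. AAR2 is named after a yeast protein that takes part in the assembly of the U5 particle of the spliceosome. miR773a targets MET2, a gene of the DNA methyltransferase family, and miR773 has been reported to act in the response of Arabidopsis to fungal pathogens. miR843 is known for targets among F-box genes, whose products select proteins for ubiquitination. No function is given here for miR5637 and miR5028.

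The mature sequences are shown because they distinguish the 4 entries from their nearest relatives. They were read from the TAIR10.1 assembly of RefSeq at the positions of its annotation, and bases 2 to 8 from the 5′ end, the seed, are in capitals. The last line is miR773b-3p, the closest annotated relative of miR773a.
miR773a: uUUGCUUCcagcuuuugucuc
miR843: uUUAGGUCgagcuucauugga
miR5637: aAUGCGCAacucuauauuucc
miR5028: aAUUGGGUuuaugcuagaguu
miR773b-3p: uUUGAUUCcagcuuuugucuc
Each of the 4 is 21 bases long, as are 77.7% of the 197 entries. miR773a and miR843 begin with U, as do 60.4% of the entries, and miR5637 and miR5028 begin with A, as do 18.8%. The 4 seeds differ from each other, and none was shared with another of the 428 mature miRNAs of the annotation. miR773b-3p differs from miR773a by 1 base, C5A (miR773a first, counted from its 5′ end). It was not analysed here, since none of the 242 names in the tables is miR773b-3p. Whether the authors' alignment allowed mismatches is not given in the sources used here, so it is not known whether reads of miR773b-3p could enter the miR773a entry.

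The 4 hairpins lie at separate places in the genome, and 3 of the 4 mature sequences are intergenic, that is, within no other gene on the same strand. MIR773a lies on chromosome 1 at 13067251 to 13067335 (plus strand, mature sequence at 13067313 to 13067333), 655 bases from AT1G35500. MIR773b lies on the minus strand of the same chromosome, with 16386 bases between both precursors, and 81 of the 85 bases of the MIR773a precursor are the same in it. MIR843 lies on chromosome 3 at 17742098 to 17742302 (plus strand, mature sequence at 17742147 to 17742167), 6 bases from the transcribed pseudogene AT3G48058, annotated as a relative of Rac-like GTP-binding proteins. MIR5637 lies on chromosome 2 at 12270179 to 12270373 (minus strand), and its mature sequence (12270341 to 12270361) is within an intron of the protein-coding gene AT2G28620 on the same strand. MIR5028 lies on chromosome 4 at 6546647 to 6546827 (minus strand, mature sequence at 6546769 to 6546789), 31 bases from LCR2, a gene for a small cysteine-rich protein on the other strand. Of all 197 entries, 145 were intergenic, 28 intronic and 24 exonic.

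The precursors of miR773a and miR843 are shown because they are the shortest and the longest of the 4, with the mature miRNA in capitals.
MIR773a: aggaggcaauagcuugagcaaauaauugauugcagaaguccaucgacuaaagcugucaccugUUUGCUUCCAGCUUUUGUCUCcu
MIR843: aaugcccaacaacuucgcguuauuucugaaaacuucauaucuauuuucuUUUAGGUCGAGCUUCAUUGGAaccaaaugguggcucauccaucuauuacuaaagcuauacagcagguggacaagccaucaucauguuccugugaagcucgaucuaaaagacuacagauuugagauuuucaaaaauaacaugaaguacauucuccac
miR773a lies in the 3′ part of its hairpin, and miR843, miR5637 and miR5028 lie in the 5′ part. The precursors measure 85, 205, 195 and 181 bases for miR773a, miR843, miR5637 and miR5028, against quartiles of 113 and 193 bases over the 197 entries. Their predicted folding energies per 100 bases were -43.8, -42.9, -39.3 and -35.8 kcal/mol, where the entries had a median of -40.2 and quartiles of -46.0 and -35.5 kcal/mol. Of the 21 mature bases, 19 of miR5637 find a Watson-Crick partner in the best ungapped window elsewhere in the hairpin, compared with 18 for miR843, 17 for miR5028 and 14 for miR773a. In the structures folded for the energies, 20 mature bases of miR843 and of miR5637, 18 of miR773a and 16 of miR5028 were paired, where the median entry had 19, so the least paired of the 4 depends on the measure. Each of the 4 mature sequences matched the genome exactly at 1 place, that of its own hairpin.

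Sites in coding sequence are shown for the annotated target of miR773a and for the best matches of miR843. Capitals mark bases that form a Watson-Crick pair with the miRNA. The MIR773a locus is annotated in RefSeq as targeting MET2, listed there under the symbol DMT2 (AT4G14140, chromosome 4, 8146354 to 8146375, plus strand). For miR843, the 2 best matches among 31464 transcripts, the longest of each gene, are AT3G13830 (chromosome 3, 4554152 to 4554172, plus strand) and AT1G11810 (chromosome 1, 3989960 to 3989980, plus strand), both annotated as members of F-box families.
miR773a site in DMT2: GAGACAAAAGCUGGaAAGCAAA
miR843 site in AT3G13830: UuCAAUGAAGCUCGACCUAAA
miR843 site in AT1G11810: UuCAAUGAAGCUgGACCUAAA
The DMT2 site pairs with all 21 bases of miR773a if 1 base of the transcript is looped out, and with 18 of them without a gap. The AT3G13830 site pairs with 20 bases of miR843 and forms 1 G:U pair, and the AT1G11810 site pairs with 19, with 1 G:U pair and 1 mismatch. At a limit of 3 penalty points (1 per mismatch, 0.5 per G:U pair, doubled at miRNA positions 2 to 13, no gaps), 2 genes held a site for miR773a (RFNR1, a root ferredoxin:NADP(H) oxidoreductase, and AT1G50770), 2 for miR843 (those above), and 0 for miR5637 and for miR5028. The ungapped DMT2 site scored 6 points, above the limit, so this search did not count the annotated target of miR773a. Over the 197 entries the median was 0 genes, with an upper quartile of 2. These are matches of letters; no transcript was measured in this series.

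Abundances are in RPM, that is, reads scaled to a library-wide denominator that the labels do not define. Every value was a whole multiple, to within 0.02 reads, of 1 step per library. That step, the lowest value above 0, was taken as 1 read and was worth 0.0868 to 0.142 RPM. The denominators this implies ran from 8505555 to 9754859 reads in WT and from 7062198 to 11524176 reads in aar2-1. All 197 entries together made up 5.07% ± 0.387 of the denominator in WT and 2.23% ± 0.481 in aar2-1 (SD, n = 3 each), without overlap between the genotypes. As the denominator is not defined, a lower share of it need not be a lower amount of miRNA, which was not measured. In bulk seedlings, fewer cells that make a miRNA and less of it per cell cannot be told apart either.

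The 4 miRNAs were higher in aar2-1 against this background. In each of the 4, every mutant library was above every WT library, which held for 10 of all 197 entries (5.08%). The reverse, every mutant library below WT, held for 100 of the 197 (50.8%) and for 78 of the 131 entries with a mean of at least 1 RPM (59.5%). As the members were picked for this direction, nothing is read from their share. The differences ran from 2.34-fold for miR843 to 3.86-fold for miR5028 in the means, and miR773a went from 2 reads in all WT libraries together to 54 in the mutant.

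**Figure D1:**
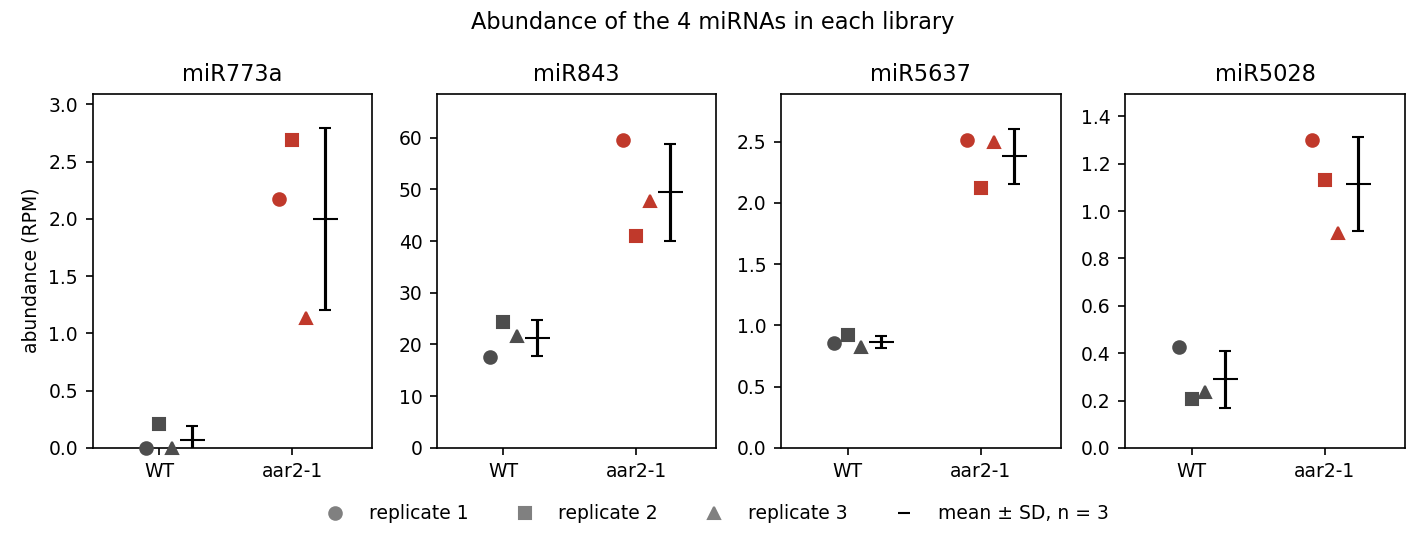
Abundance (RPM, vertical axes from 0, a scale per panel) of miR773a, miR843, miR5637 and miR5028 in the 3 WT and the 3 aar2-1 libraries; symbols mark the replicate number, and horizontal marks with bars give the mean and SD of a genotype (n = 3). In each panel the 3 aar2-1 libraries sit above the 3 WT libraries, and for miR773a 2 WT libraries sit at 0.

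miR773a, the miRNA that targets MET2, had almost no reads in WT. Replicates 1 to 3 of WT gave 0, 2 and 0 reads of it, while those of aar2-1 gave 25, 19 and 10 reads. As abundance this was 0, 0.205 and 0 RPM for WT, against 2.17, 2.69 and 1.14 RPM for the mutant. Replicate 2 was the highest library of either genotype, and replicate 3 the lowest of the mutant; the genotypes did not overlap. WT averaged 0.0683 ± 0.118 RPM and aar2-1 2.00 ± 0.791 RPM (SD, n = 3). The WT level lies below that of 3 reads over the 3 libraries, 0.109 RPM. The ratio of the summed reads, each over its denominator, was 27.2 in favour of aar2-1, with a 95% exact interval of 7.18 to 231. This interval, like the others on summed reads, covers counting error only, since the reads carry no molecular identifiers and libraries also differ from each other. On the log2(RPM + 1) scale, which compresses differences near and below 1 RPM, the difference of the means was 1.46.

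miR843, with its F-box targets, was the most abundant of the 4 in every library. WT replicates 1 to 3 had 17.5, 24.4 and 21.6 RPM (164, 238 and 184 reads), and aar2-1 replicates 1 to 3 had 59.6, 41.1 and 47.7 RPM (687, 290 and 420 reads). The lowest mutant library, replicate 2, lay 16.7 RPM above the highest WT library, which was also replicate 2. The means were 21.2 ± 3.47 and 49.5 ± 9.40 RPM (SD, n = 3), 2.34-fold higher in aar2-1, a difference of 1.18 on the log2(RPM + 1) scale. Taken by replicate number, the differences on that scale were 1.71, 0.73 and 1.11. The ratio of the summed reads, 1397 against 586 over their denominators, was 2.40 (95% exact interval 2.18 to 2.65).

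miR5637, the one of the 4 whose mature sequence lies in an intron, varied least within a genotype relative to its mean. It had 0.854, 0.923 and 0.823 RPM in WT (8, 9 and 7 reads) and 2.52, 2.12 and 2.50 RPM in aar2-1 (29, 15 and 22 reads). On so few reads, the small spread is not read as steadier expression. Replicates 1 and 3 of the mutant lay close together, and replicate 2, the shallowest library, was the lowest of the mutant. The means were 0.866 ± 0.0510 and 2.38 ± 0.222 RPM (SD, n = 3), 2.75-fold higher in aar2-1, or 0.85 on the log2(RPM + 1) scale. The ratio of the summed reads was 2.77 (95% exact interval 1.72 to 4.63).

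miR5028 was below 0.5 RPM in each WT library and near 1 RPM in the mutant. It had 0.427, 0.205 and 0.235 RPM in WT (4, 2 and 2 reads) and 1.30, 1.13 and 0.908 RPM in aar2-1 (15, 8 and 8 reads). The genotypes did not overlap, the closest libraries being WT replicate 1 and aar2-1 replicate 3. The means were 0.289 ± 0.120 and 1.11 ± 0.197 RPM (SD, n = 3), 3.86-fold higher in aar2-1, or 0.71 on the log2(RPM + 1) scale. The ratio of the summed reads, 31 against 8, was 3.91 (95% exact interval 1.76 to 9.84). With a mean of 0.702 RPM over the 6 libraries it is the only one of the 4 under the minimum of 1 RPM that the fit across entries required. miR773a (mean 1.03 RPM) and miR5637 (1.62 RPM) reached this minimum only through aar2-1, as their WT means were 0.0683 and 0.866 RPM.

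The order of the 4 levels differed between the genotypes at its lower end. In WT, miR843 was followed by miR5637, then miR5028 and then miR773a. The ranges of miR5637 and miR5028 were apart, whereas miR5028 and miR773a had the same 2 reads in WT replicate 2. In aar2-1, miR843 was followed by miR5637, miR773a and miR5028, and the values of miR773a, from 1.14 to 2.69 RPM, overlapped with those of both neighbours. RPM counts reads of a miRNA whatever its length. Whether the 4 sequences are captured equally well was not measured, so the order is one of reads and not of molecules.

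Among all entries of a library, each of the 4 ranked higher in the mutant. miR773a ranked between 166 and 192 of the 197 entries by RPM in WT and between 81 and 99 in aar2-1. miR843 moved from between 57 and 69 to between 26 and 33, miR5637 from between 135 and 145 to between 79 and 93, and miR5028 from between 158 and 168 to between 106 and 114. Ranks of the low entries rest on few reads, and entries with equal values share a rank. Rescaled to RPM of the miRNA reads alone, miR843 had 422 ± 99.5 in WT and 2239 ± 315 in aar2-1, miR5637 had 17.2 ± 2.39 and 109.6 ± 23.2, miR5028 had 5.64 ± 2.07 and 50.3 ± 3.84, and miR773a had 1.48 ± 2.56 and 89.8 ± 35.3 (SD, n = 3). On this basis miR843 was 5.31-fold, miR5637 6.37-fold and miR5028 8.92-fold higher in the mutant; the smaller miRNA total of aar2-1 enters these ratios.

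**Figure D2:**
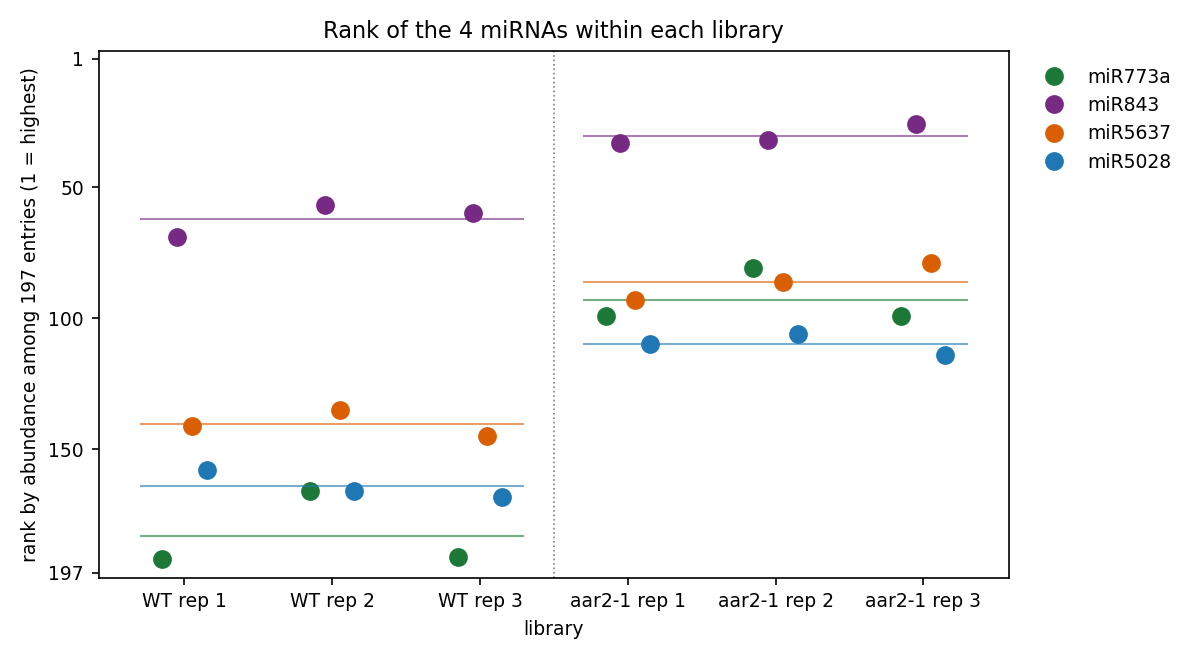
Rank by abundance among the 197 entries (vertical axis, 1 is the highest) of the 4 miRNAs in each library (horizontal axis); horizontal lines give the mean rank in a genotype (n = 3). Each miRNA stands higher in all 3 aar2-1 libraries than in the 3 WT libraries, and miR773a and miR5028 share a rank in WT replicate 2.

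Set among the changes of all entries, the 4 lay near the top of the distribution, which is how they were picked. The difference between genotypes was scored for each entry as the change of the mean log2(RPM + 1), and 25 of the 197 entries (12.7%) were higher in aar2-1. The median over all 197 entries was -0.63, and -0.83 over the 131 entries with a mean of at least 1 RPM. By this change miR773a, miR843 and miR5637 ranked 1 to 3 of 197, and miR5028 ranked 5. Between miR5637 and miR5028 stood miR5020b, which is not among the 4, at 0.80 (WT 0.108 ± 0.103 RPM, aar2-1 0.944 ± 0.321 RPM), and just below miR5028 stood miR5632-5p at 0.67 (0.137 ± 0.237 and 0.800 ± 0.327 RPM). Besides the 4, the entries whose mutant libraries were all above WT were miR5020b, miR5632-5p, miR828, miR5656, miR1886.1 and miR397a, 6 entries named here after their values were seen, with means from 0.186 to 0.572 RPM.

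In limma, fitted on log2(RPM + 1) over the 131 entries with a mean of at least 1 RPM and called at a Benjamini-Hochberg adjusted p under 0.05, 3 entries passed as higher in aar2-1 (2.29%) and 80 as lower (61.1%). Without the minimum, 7 of 197 entries passed as higher (3.55%) and 91 as lower (46.2%). These counts are given as the background over all entries. They hold the selection: the 3 higher entries, and 4 of the 7 without the minimum, are among the 4 miRNAs. Of these, miR773a and miR5637 reached the minimum only through the aar2-1 libraries, in which they are high. The fit is not used as a test of the 4, because the same contrast chose them.

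**Figure D3:**
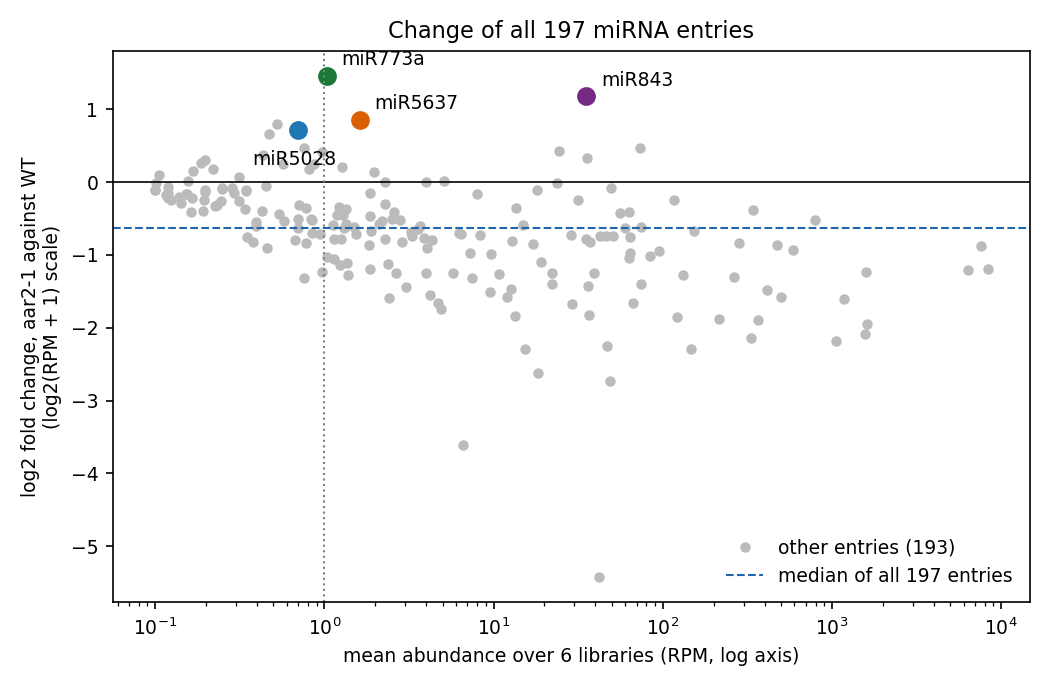
Log2 fold change of aar2-1 against WT on the log2(RPM + 1) scale (vertical axis) against the mean over the 6 libraries (RPM, log axis) for the 4 miRNAs (coloured) and the other 193 entries (grey); the dashed line is the median of all entries, -0.63, and the dotted line marks 1 RPM. The 4 lie between 0.71 and 1.46, and miR843 is the only one of them above 10 RPM.

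The size of the difference depends on the scaling. Each of the 3 other scalings tried moves the median of the tested entries upward in aar2-1, so a positive sign of the 4 under them is no sign of stability. When each library was divided by a median-ratio factor (from entries with 10 RPM or more), the median change of the 131 entries moved from -0.83 to 0.014, and the changes became 1.84 for miR773a, 2.22 for miR843, 1.48 for miR5637 and 1.13 for miR5028. Expressed as a share of the summed miRNA entries, rescaled to the mean total, they were 1.98, 2.35, 1.61 and 1.23 around a median of 0.087. With each library centred on its median log2 value they were 2.80, 2.52, 2.20 and 2.06 around a median of 0.52. The calls over all tested entries changed with them, from 3 higher and 80 lower (96.4% lower) to 22 and 27 (55.1%), 22 and 17 (43.6%), and 55 and 12 (17.9%) in the same order. On this scale, miR843 had the largest change of the 4 with the factor and with the share, and miR773a as deposited and after centring. That order depends on the 1 RPM added before the log, which compresses the changes of the less abundant miRNAs. As plain ratios of the mean shares, miR843 had the smallest, 5.31. The ratio was 6.37 for miR5637, 8.92 for miR5028 and 60.8 for miR773a, the last resting on 2 WT reads.

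**Figure D4:**
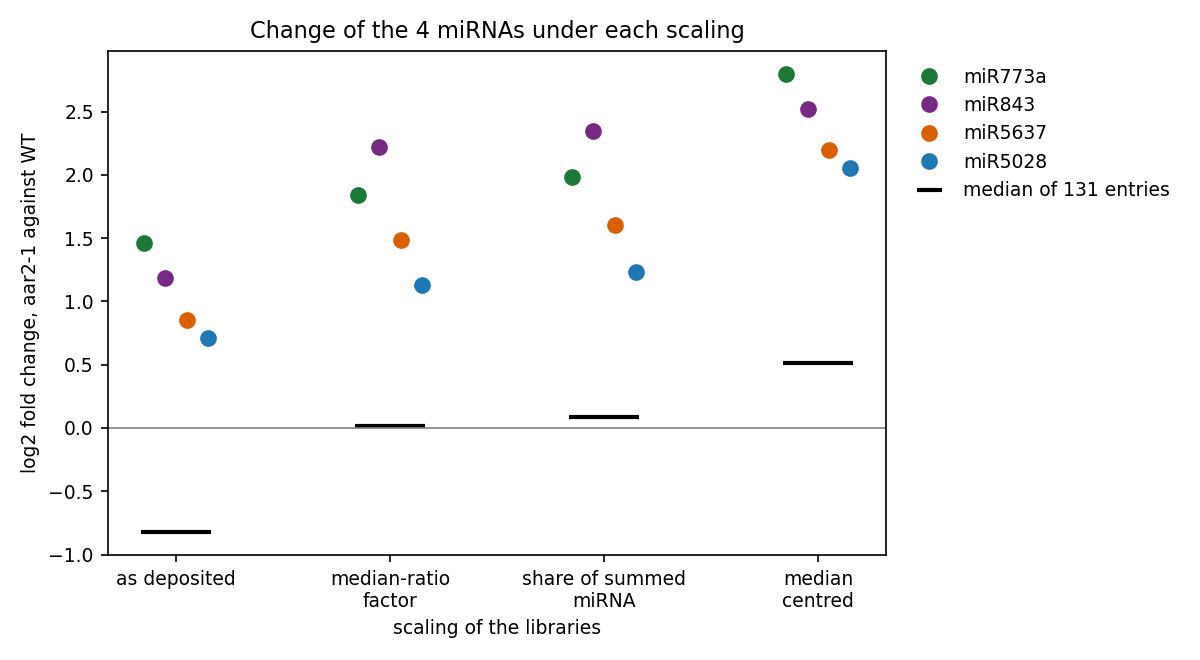
Log2 fold change of aar2-1 against WT (vertical axis) of the 4 miRNAs with the libraries scaled in 4 ways (horizontal axis), on the log2 scale with 1 RPM added; black marks give the median of the 131 entries of at least 1 RPM. All 4 lie above 0 and above the median in each scaling, from 0.71 for miR5028 as deposited to 2.80 for miR773a after centring.

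The entries whose pattern over the 6 libraries was most like that of the members were the same for miR773a, miR843 and miR5637. Among 128 other entries of at least 1 RPM, the 3 highest Pearson correlations of log2(RPM + 1) were with miR845a, miR396b-3p and miR393a-3p, with r from 0.60 to 0.82. The points are 3 libraries of each of 2 genotypes, so r mostly reflects the step between them. miR845a averaged 31.8 ± 5.71 RPM in WT against 40.0 ± 4.96 RPM in the mutant. miR396b-3p had 60.7 ± 6.61 and 87.0 ± 27.2 RPM, and miR393a-3p had 20.4 ± 3.96 and 28.1 ± 7.87 RPM. In each of these 3 the genotypes overlapped, and none passed in limma (log2 fold changes 0.33, 0.47 and 0.42, adjusted p = 0.335, 0.187 and 0.238). With miR2112-3p (log2 fold change 0.20) and miR5663-3p (0.14), they were the 5 highest changes of tested entries outside the 4.

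Other miRNAs with targets or roles like those known for miR773 and miR843 are given beside all tested entries. Of those, 61.1% passed as lower and 2.29% as higher. The 3 that passed as higher are among the 4 miRNAs picked for this direction, which the lists leave out. No other tested entry was higher even at an unadjusted limma p under 0.05. A count of 0 higher in a list is therefore no finding, and nothing particular to these lists is read from the counts. Of the miRNAs whose targets are methyltransferase genes acting on DNA or histones, miR823, which targets the chromomethylase gene CMT3, had an entry. It fell from 3.87 ± 0.662 to 1.85 ± 1.03 RPM (log2 fold change -0.83, SE 0.29, limma adjusted p = 0.0214), a call that was lost without WT replicate 3 and without aar2-1 replicate 2 or 3. Of 8 entries of other miRNAs with F-box targets (miR393, miR394, miR859 and miR2111, passenger strands included), 5 were tested. In limma 3 of the 5 passed as lower and 0 as higher, against 80 and 3 of all 131 tested entries. The tested passenger strands were miR2111b-3p, miR393a-3p and miR393b-3p, so the counts do not describe targeting strands alone. The 5 tested F-box entries had a median log2 fold change of -0.71, against -0.83 over all tested entries. Without WT replicate 1 or without aar2-1 replicate 2, 1 F-box entry passed as lower. The entry of miR394a and miR394b-5p, which targets the F-box gene LCR, fell from 113 ± 45.9 to 55.8 ± 27.0 RPM (adjusted p = 0.0331), and miR393b-3p had 388 ± 46.1 and 299 ± 67.5 RPM (adjusted p = 0.201). The immunity list held 20 entries of other miRNAs with reported roles there, passenger strands included. These were miR160, miR393, miR398, miR400, miR472, miR825, miR844, miR858 and miR863. Of the 20, 17 were tested, and 9 passed as lower and 0 as higher in limma, beside the same 80 and 3 of 131. Their median was -0.72 beside -0.83. The miR393 entries are in both this list and the F-box list, so a lower call among them counts in each. The entry of miR398b-3p and miR398c-3p, which target copper superoxide dismutase transcripts, fell from 1778 ± 438 to 584 ± 148 RPM (adjusted p = 0.000105). At an unadjusted p under 0.05, 0 entries of these lists were higher. These directions do not hold under the other scalings: with the median-ratio factor, 2 F-box entries passed as higher and 0 as lower, 5 immunity entries as higher and 2 as lower, and miR823 did not pass.

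The changes of other entries in the same kinds of genome position are given for reference. Of the 13 tested entries with an intronic mature sequence, those other than miR5637 had a median log2 fold change of -0.49 and a highest value of 0.20, against 0.85 for miR5637. The 104 tested intergenic entries, miR773a and miR843 aside, had a median of -0.94 and a highest value of 0.47. Both highest values depend on the minimum of 1 RPM. Under it, the intronic miR5632-5p had 0.67 and the intergenic miR5020b had 0.80. As the 4 were picked for high values, nothing is read from their standing above the tested entries. Of all entries, tested or not, 10 had every mutant library above WT, of which 6 were intergenic, 3 intronic and 1 exonic. These 10 include the 4 members, 3 intergenic and 1 intronic, which were picked for this direction. Over all entries, 73.6% were intergenic and 14.2% intronic. Nothing is read from these counts.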

How the data were processed

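The authors deposited 1 table per library, with values that are taken here as RPM; the unit is inferred from the values, which are whole multiples of 1 step per library (100% of 1182 values within 0.02 reads). The submitters' processing notes name cutadapt, Bowtie and the build TAIR10, with no versions; the miRNA registry, read lengths, mismatches and treatment of reads with several matches are not given in the sources used here. Positions and sequences come from RefSeq TAIR10.1, whose annotation held all 242 names; no position was taken from the tables.

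Computed here were log2(RPM + 1) values and a limma fit (version 3.58.1, R 4.3.3; genotype as the only factor, variance trend, two-sided, Benjamini-Hochberg) on the 131 entries with a mean of at least 1 RPM. Count-model tests were planned as alternatives but not run, because the tables hold too few low values for the stricter check of whole reads that they depended on. On 20 simulated sets of 197 entries the fit recovered 99.2% of entries changed by 1.5 or 2 on the log2 scale, and 4.8% of its calls were false. The sets used the depths and mean levels of this comparison. They had the same dispersion for every entry, no effect shared by a library, and changes in both directions among entries above a minimum mean. The real calls were mostly lower, so these rates check the working of the fit and are not its error rates here. Intervals on summed reads are exact conditional binomial intervals at 95%. Hairpins were folded with RNAfold 2.7.2; further tools were Python 3.11.15, pandas 2.3.3, numpy 2.4.6, scipy 1.17.1 and matplotlib 3.10.9.

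The members, the lists and the tests were chosen with earlier results of these data known. Named are all member entries, the 3 entries most correlated with each tested member, the 5 next highest changes, up to 2 entries of each list by largest mean with those past the threshold as higher, entries sharing a seed with a member and the other arm of a member hairpin; the last 2 gave no entry. The rule also covers the 3 entries of largest mean, on which no result here turns.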

Additional observations from a re-analysis of the deposited data

How the results depend on the processing

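Every mutant library of the members was above WT by their selection, and the other scalings move the median entry upward, so their sign under the alternatives says nothing of stability and only sizes are given. With pseudocounts of 0.1 and 5 RPM the log2 fold changes were 3.77 and 0.46 for miR773a, 1.36 and 0.33 for miR5637 and 1.67 and 0.21 for miR5028, because the pseudocount is of the size of their levels. The changes with 1 factor per library were 1.84 (miR773a), 2.22 (miR843), 1.48 (miR5637) and 1.13 (miR5028); as a share of summed miRNA they were 1.98, 2.35, 1.61 and 1.23, and centred on the library median 2.80, 2.52, 2.20 and 2.06. Leaving out each library in turn gave 1.29 to 1.68 for miR773a, 1.04 to 1.30 for miR843, 0.83 to 0.91 for miR5637 and 0.65 to 0.79 for miR5028.

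Against 83 entries past the threshold (3 higher, 80 lower), the factor gave 49 (22 and 27), the share 39 (22 and 17), centring 55 higher and 12 lower, no filter 7 higher, and a minimum of 10 RPM 45 (1 and 44), where 69 entries were tested. Leave-one-out fits gave 62 to 108 entries, 3 higher in each and 59 to 105 lower. With the replicate block 98 entries passed (3 higher, 95 lower), and the lists had 1, 3 and 11 lower. In the main fit the 3 higher entries were miR773a, miR843 and miR5637, which were picked for this direction in these same libraries. A higher count that stays at 3 is therefore no sign of stability. Pairing by replicate number was examined on log2(RPM + 1) of the tested entries, less each entry's mean in its genotype. These deviations correlated between same-numbered libraries at r = 0.49, 0.05 and -0.15 for replicates 1 to 3, and at 0.31 pooled. The replicates differed in this, and the main fit did not pair by number. The cause of these shifts was not tested.

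For the lists, the methyltransferase list had 0 lower with the factor, the share, centring and 10 RPM, and 0 to 1 when leaving out a library. The F-box list had 2 higher and 0 lower with the factor, the share and centring, 1 lower at 10 RPM, and 1 to 4 lower when leaving out a library. The immunity list had 5 higher and 2 lower with the factor, 5 and 0 with the share, 8 and 0 with centring, 2 lower at 10 RPM, and 7 to 12 lower when leaving out a library. Depth limits miR773a and miR5028 most, with 2 and 8 WT reads in all. The planned edgeR and DESeq2 alternatives were not run, since they depended on the recovery of whole reads by a check that needs more low values than a table holds.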
